A study of Mus musculus with 35 samples.

Results

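The adult testis was compared with brain, cerebellum, heart and colon of the same mouse strain, over protein-coding genes and long noncoding RNAs (lncRNAs, transcripts with no annotated protein product), with pseudogenes left out. The comparison used 26 of the 29 RNA-seq libraries, 3 of testis and 23 of somatic tissue. Every library came from adult C57BL/6J mice that carried no listed treatment or mutation. Brain, cerebellum and colon were each represented by 3 female and 3 male libraries and heart by 3 female and 2 male libraries, whereas the 3 testis libraries, labelled as male gonad, came from males only. The 3 ovary libraries of the series entered the statistical fit but not the contrast. The deposited count matrix covered 55356 loci, of which 21662 were protein-coding and 9959 were lncRNAs by the deposited annotation. The labels do not say whether replicates came from separate animals, so the P values below measure the spread between libraries.

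The testis holds the seminiferous tubules, in which germ cells pass from spermatogonial stem cells through meiosis to haploid spermatids, beside the somatic Sertoli cells that nurse them and the steroid-producing Leydig cells between the tubules. Spermatids rebuild the chromatin around transition proteins and protamines, form an acrosome and a flagellum, and store many messages for later translation. Meiotic silencing of the sex chromosomes and a very broad transcription of the genome are also known features of this tissue. In whole-tissue libraries, fewer cells of a type and less RNA per cell cannot be told apart.

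The 3 testis libraries carried markers of germ cells, Sertoli cells and Leydig cells. The acrosomal gene Adam3 stood at 298 ± 24.7 FPKM (counts per kilobase of exon and relative to library size; SD, n = 3), the Sertoli gene Cst9 at 108 ± 7.35 FPKM and the Leydig gene Cyp17a1, a steroid hydroxylase, at 398 ± 61.5 FPKM. The 3 libraries correlated at 0.989 to 0.991 across genes on the log2 scale. Total counts ran from 11742417 to 36194255 over the 26 libraries. Female heart replicate 3 stood apart from the other hearts. Its level of Adipoq, a fat-cell hormone, was 695 FPKM against 0.0517 to 1.74 FPKM in the other hearts, and its level of Myh6, the atrial and adult ventricular myosin, was 1789 FPKM against 3441 to 4951 FPKM. Without this library, 4722 protein-coding genes in place of 4686 and 2374 lncRNAs in place of 2349 were called higher in testis than in all 4 tissues. A second departure was found in colon. The 8 most abundant testis-restricted coding genes named below summed to 48.8, 25.3 and 19.4 FPKM in female colon replicates 1 and 3 and male colon replicate 3, whereas the remaining 20 somatic libraries held 0 to 7.85 FPKM and the testis libraries 29229 to 35745 FPKM. The highest of the colon values was 0.152% of the testis mean. Without these 3 colon libraries, 4749 coding genes and 2465 lncRNAs were called higher than all 4 tissues.

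More genes were detectable in testis than in any somatic library, and the excess was mainly one of lncRNAs. At a level of 1 FPKM or more, the 3 testis libraries held 2683 to 2808 lncRNAs, with a mean of 2740 ± 63.3 (SD, n = 3). Somatic libraries held 994 to 1758, and the tissue means were 1591 in brain, 1678 in cerebellum, 1159 in heart and 1540 in colon. All 23 somatic libraries lay below the lowest testis library, and testis exceeded the equal-weight mean of the 4 tissues by 1248 lncRNAs (exact permutation test over all 2600 choices of 3 libraries, two-sided P = 0.0003846, the smallest value possible; adjusted P = 0.0009615 over 5 library values). For protein-coding genes the testis mean was 12998 ± 87.9, against 12676 in brain, 12737 in cerebellum, 11102 in heart and 12296 in colon. The lowest testis library held 12900 and the highest somatic library 12877, so that the groups did not overlap but lay close. The testis excess of 795 genes gave P = 0.05 in the same exact permutation test, which did not pass the threshold. Heart lay further from the other tissues than testis did. Without female heart replicate 3 the excess was 866 genes (exact permutation P = 0.03304). At 2 FPKM or more it was 506.5 genes (exact permutation P = 0.2108).

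The composition of the libraries differed as well. lncRNAs took 3.95% ± 0.154 of counts in testis (SD, n = 3) and 2.38% to 3.51% in the somatic libraries, with no overlap (exact permutation P = 0.0003846, adjusted P = 0.0009615). The 100 most abundant genes took 18.9% ± 0.831 of counts in testis, less than in any of the 23 somatic libraries, which ranged from 21.3% to 46.8% (exact permutation P = 0.025, adjusted P = 0.03125), a call that was lost without testis replicate 1 (exact permutation P = 0.05333). X-linked genes took 1.67% ± 0.0673 of counts in testis. Brain at 3.33%, cerebellum at 3.17% and colon at 2.50% lay above testis, but heart at 1.68% lay at the same level, and 2 somatic libraries lay below all 3 testis libraries. The difference from the equal-weight somatic mean was -1.01 percentage points (exact permutation P = 0.01462, adjusted P = 0.02436). The call was lost without testis replicate 1, 2 or 3 (exact permutation P = 0.05, 0.05333 and 0.05). Mitochondrially encoded transcripts, which respiring tissues hold in large amounts, are part of the denominator of these shares, and leaving them out gave -1.13 percentage points for the X-linked share.

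**Figure D1:**
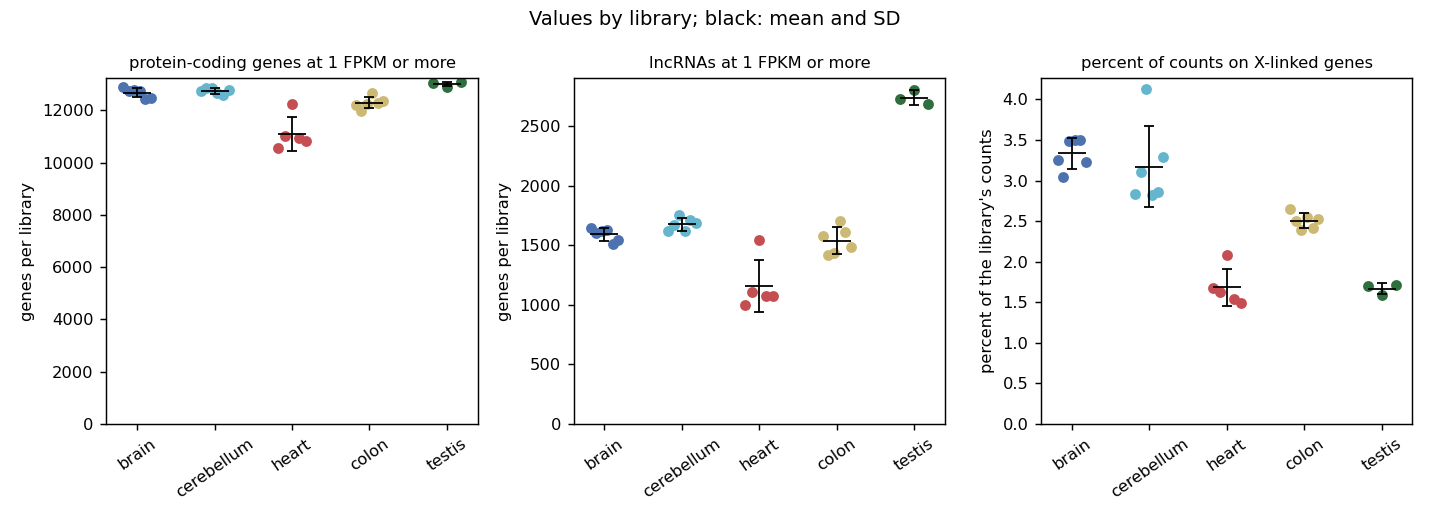
Number of protein-coding genes and of lncRNAs at 1 FPKM or more, and percent of counts on X-linked genes (vertical axes), in each of the 26 libraries (points) by tissue (horizontal axis); black marks give mean and SD. The 3 testis libraries sit at 2683 to 2808 lncRNAs, above every somatic library, while their X-linked share lies with that of heart.

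The fitted differences had another shape for lncRNAs than for coding genes. Differences were fitted for the 18207 protein-coding genes and 6249 lncRNAs whose counts passed the low-count filter, among 29911 genes of all kinds tested. Against the equal-weight mean of the 4 tissues, on a log2 scale, the coding genes had a median of 0.01 with quartiles of -1.07 and 1.75. The lncRNAs had a median of 1.06, with quartiles of -0.79 and 5.54. A total of 7408 coding genes (40.7% of those tested) were called higher and 6381 (35.05%) lower in testis at an adjusted P under 0.05 (edgeR quasi-likelihood test). This balance depended on the scaling, with 6410 higher and 7806 lower by upper-quartile scaling and 6787 higher and 6952 lower by total counts alone. Among lncRNAs, 3216 (51.5%) were called higher and 895 (14.3%) lower. Over all genes tested, 40.7% were called higher and 26.6% lower. No count was found in any somatic library for 361 of the tested lncRNAs and 292 of the coding genes, so that their fitted differences depend on the prior count; with such genes set at the bound that a floor of 3 counts per library allows, the medians were 1.00 for lncRNAs and 0.01 for coding genes.

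**Figure D2:**
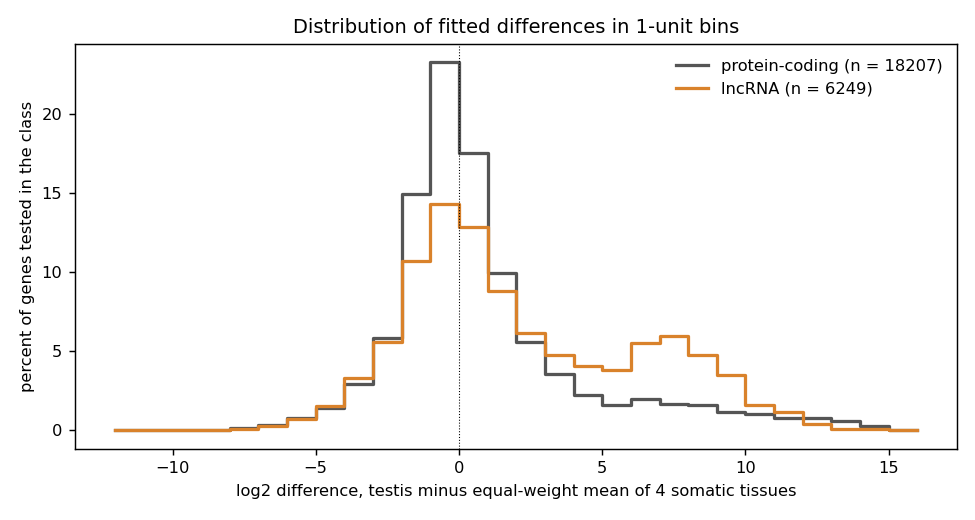
Percent of the tested genes of each class (vertical axis) by fitted log2 difference between testis and the equal-weight somatic mean (horizontal axis, bins of 1). Both classes peak near 0, and the lncRNAs have a further rise above 5. Their upper quartile is 5.54, against 1.75 for coding genes.

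The equal-weight contrast averages log levels over tissues, so that a gene abundant in a single somatic tissue can still be called higher in testis. Tnni3, the cardiac troponin I, stood at 22.9 FPKM in testis and 1559 FPKM in heart and was nevertheless called higher against the mean. A stricter call was therefore made for genes that differed from each of the 4 tissues in the same direction. By this call 4686 coding genes (25.7% of those tested) and 2349 lncRNAs (37.6%) were higher, against 27.1% of all genes tested. Genes with no count in any somatic library passed the filter through testis or ovary alone, and without them the shares were 24.7% of coding genes, 33.8% of lncRNAs and 24.8% of all genes. In the other direction 2342 coding genes (12.9%) and 273 lncRNAs (4.37%) were lower, against 9.33% of all genes. Upper-quartile scaling gave 3690 coding genes and 432 lncRNAs that were lower, and 111 of 3926 lncRNAs (2.83%) were lower when genes sharing exon bases were left out. A difference of at least 5 on the log2 scale from every tissue was reached by 1542 coding genes and 1251 lncRNAs that were higher. It was reached by 12 coding genes and 5 lncRNAs that were lower. These counts are not a like-for-like comparison, since the lower direction asks for a high level in all 4 tissues and the higher one in testis alone. Genes with no somatic count, whose fitted differences depend on the prior count, can be among those higher. Of such genes, 261 coding genes and 360 lncRNAs were called higher than all 4 tissues. The share of all genes tested that reached this difference was not computed. A further 4121 coding genes and 635 lncRNAs were higher than 1 tissue or more and lower than another.

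The single tissues gave similar totals. Coding genes higher in testis numbered 7474 against brain, 7542 against cerebellum, 7751 against heart and 8039 against colon, where the shares of all genes tested were 40.4%, 40.3%, 42.2% and 42.3%. Coding genes lower in testis numbered 6836, 6591, 5980 and 6030 in the same order, where the shares of all genes were 31.2%, 30.7%, 25.3% and 29.6%. For lncRNAs the higher calls numbered 3020, 3018, 3240 and 3195, and the lower calls 1427, 1418, 938 and 1177. All 3 testis libraries lay above all 23 somatic libraries for 4313 coding genes (23.7% of those tested) and 2232 lncRNAs (35.7%). They lay below them for 2120 coding genes (11.6%) and 184 lncRNAs (2.94%). The share over all genes tested was not computed for this count.

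The shares of counts on the called genes are given as a description, since their direction follows from how the genes were chosen. The 4686 coding genes took 54.0% to 56.4% of testis counts and 5.72% to 9.90% of somatic counts. The 1542 with differences of 5 or more took 21.4% to 22.8% of testis counts and at most 0.105% of somatic counts. The 2349 lncRNAs took 2.61% to 2.86% of testis counts against 0.108% to 0.237% in the somatic libraries. At the other end, the 2342 coding genes that were lower took 4.74% to 5.30% of testis counts and 20.1% to 32.2% of somatic counts. Testis was the tissue of highest mean level for 4710 of 16327 coding genes (28.8%) and for 2033 of 4035 lncRNAs (50.4%) that reached 1 FPKM in at least 1 of the 5 tissues. Of the 5 tissues, testis was the only one to reach 1 FPKM for 1530 lncRNAs and 1533 coding genes, of which 66 and 143 also reached it in ovary.

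The most abundant testis-enriched coding genes were those of protamines, transition proteins and a testis histone variant. They were ranked by testis level among the 1539 coding genes that were higher than each tissue by 5 or more with no overlap of libraries. Prm2, the protamine that is laid down as a precursor, stood at 8461, 11016 and 9460 FPKM in the 3 testis libraries and at 12.0 FPKM or less in every somatic library. Hist1h2ba, the testis H2B variant, stood at 4202, 5426 and 5597 FPKM in testis and at most 11.3 FPKM elsewhere. Prm1, the other protamine, stood at 4298, 5074 and 4460 FPKM in testis and at most 7.01 FPKM elsewhere. For each of these genes the lowest testis library exceeded the highest somatic one, by 705-fold, 372-fold and 613-fold. The transition proteins, which replace histones before the protamines, followed, with Tnp1 at 3860 to 4167 FPKM and Tnp2 at 3054 to 3797 FPKM.

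The remaining 3 of the first 8 belong to the sperm tail and to metabolism. Oaz3, a germ-cell antizyme that restrains polyamine synthesis, stood at 2188, 2633 and 2406 FPKM in testis and up to 5.13 FPKM in cerebellum. Smcp, a cysteine-rich protein of the mitochondrial capsule in the sperm midpiece, stood at 1433, 2095 and 1266 FPKM. Dbil5, a relative of the acyl-CoA binding protein, stood at 1465, 1536 and 1439 FPKM and had the smallest spread of the 3. Differences from the equal-weight mean ranged from 11.1 to 15.5 on the log2 scale for the 8 genes (edgeR adjusted P from 5.5e-24 to 5.23e-20). The difference from colon was the smallest of the 4 for 6 of the 8, and these are the genes whose sum set the 3 colon libraries apart above.

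The bases before the start sites of several of these genes are shown because they moved together, beside those of the paired glycolytic genes Pgk2 and Pgk1, of which the first is the testis isozyme. Each run is the 120 bases before the RefSeq start site in build GRCm38.p6, 5′ to 3′ on the strand of the gene, with capitals for any TATAAA or TGACG on either strand.
Prm1, chr16:10796824-10796943, minus strand: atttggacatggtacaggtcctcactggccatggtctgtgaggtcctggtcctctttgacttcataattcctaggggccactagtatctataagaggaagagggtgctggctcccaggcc
Prm2, chr16:10792106-10792225, minus strand: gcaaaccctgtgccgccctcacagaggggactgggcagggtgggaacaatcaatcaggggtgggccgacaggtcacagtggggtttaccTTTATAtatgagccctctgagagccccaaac
Tnp1, chr1:73015900-73016019, minus strand: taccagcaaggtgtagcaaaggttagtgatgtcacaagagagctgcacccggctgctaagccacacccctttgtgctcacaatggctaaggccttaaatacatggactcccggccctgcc
Tnp2, chr16:10788656-10788775, minus strand: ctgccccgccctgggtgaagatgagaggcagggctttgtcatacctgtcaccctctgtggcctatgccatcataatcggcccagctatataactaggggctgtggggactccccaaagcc
Hist1h2ba, chr13:23934157-23934276, minus strand: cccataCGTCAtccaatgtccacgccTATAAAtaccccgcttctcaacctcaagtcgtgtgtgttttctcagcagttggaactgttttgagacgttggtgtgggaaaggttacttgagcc
Pgk2, chr17:40208610-40208729, minus strand: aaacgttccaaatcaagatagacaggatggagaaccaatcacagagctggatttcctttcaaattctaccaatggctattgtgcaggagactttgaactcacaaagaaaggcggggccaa
Pgk1, chrX:106186980-106187099, plus strand: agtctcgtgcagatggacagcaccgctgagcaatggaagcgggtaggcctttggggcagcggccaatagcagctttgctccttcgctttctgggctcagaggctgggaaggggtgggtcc

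The letters TATAAA were found in the windows of Prm2 and Hist1h2ba, and those of TGACG, the core of a cyclic AMP response element, in the window of Hist1h2ba. Over all 27025 RefSeq genes with such a window, 6.76% held TATAAA and 11.9% held TGACG. CG dinucleotides numbered 0 in Prm1, 2 each in Prm2, Tnp1, Tnp2 and Pgk2, and 5 each in Hist1h2ba and Pgk1, beside a median of 3 over all windows. These are descriptions of single windows; a comparison over all genes was not made because the promoter table covered fewer than 80% of the tested genes.

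The most abundant testis-enriched lncRNAs were ranked among 1249 lncRNAs by the same rule. 1700027A15Rik (chr1:72984844-73025507, plus strand, GRCm38.p6, 3 exons) stood at 1412, 1422 and 1331 FPKM in testis and at most 1.31 FPKM in any somatic library, and it shares 40 exon bases with Tnp1 on the opposite strand. 4930571K23Rik shares no exon base with another gene and stood at 352, 374 and 335 FPKM in testis against at most 0.283 FPKM elsewhere. Rbakdn stood at 301, 307 and 297 FPKM and 1700008K24Rik at 151, 162 and 152 FPKM, against at most 0.747 and 0.246 FPKM in the somatic libraries. None of these 3 shares exon bases with a neighbor, and for each the lowest testis library exceeded the highest somatic one by 398-fold or more. The promoter windows of 2 of them are shown, as examples of abundant lncRNAs that share no exon base with a neighbor.
4930571K23Rik, chr7:125368741-125368860, plus strand: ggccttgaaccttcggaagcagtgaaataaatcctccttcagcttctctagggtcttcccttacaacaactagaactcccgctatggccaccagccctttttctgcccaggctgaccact
Rbakdn, chr5:143165752-143165871, minus strand: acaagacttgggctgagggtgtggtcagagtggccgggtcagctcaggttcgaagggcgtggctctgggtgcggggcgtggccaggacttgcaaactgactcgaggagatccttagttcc

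The remaining 4 of the 8 share 48.9% to 82.2% of their exon bases with a coding locus on the opposite strand. 1700031F10Rik had 82.2% of its exon bases opposite Dnajb8 and stood at 502 ± 19.1 FPKM in testis (SD, n = 3). Gm10501 had 80.9% opposite Hspa1l, a testis heat-shock protein, and stood at 400 ± 13.6 FPKM, where Hspa1l stood at 372 FPKM. Gm12945 had 58.8% opposite Tekt2, a tektin of the flagellum, and stood at 217 ± 27.6 FPKM, where Tekt2 stood at 209 FPKM. Gm29050 had 48.9% opposite the locus of Tmem242 and Ldhal6b and stood at 177 ± 7.66 FPKM. This locus, in which both coding genes are counted together, stood at 232 FPKM in testis and 14.9 to 26.4 FPKM in the somatic tissue means. Its log2 difference was 3.72, against 10.1 for Gm29050. The parts of Tmem242 and of Ldhal6b in these values cannot be told apart.

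**Figure D3:**
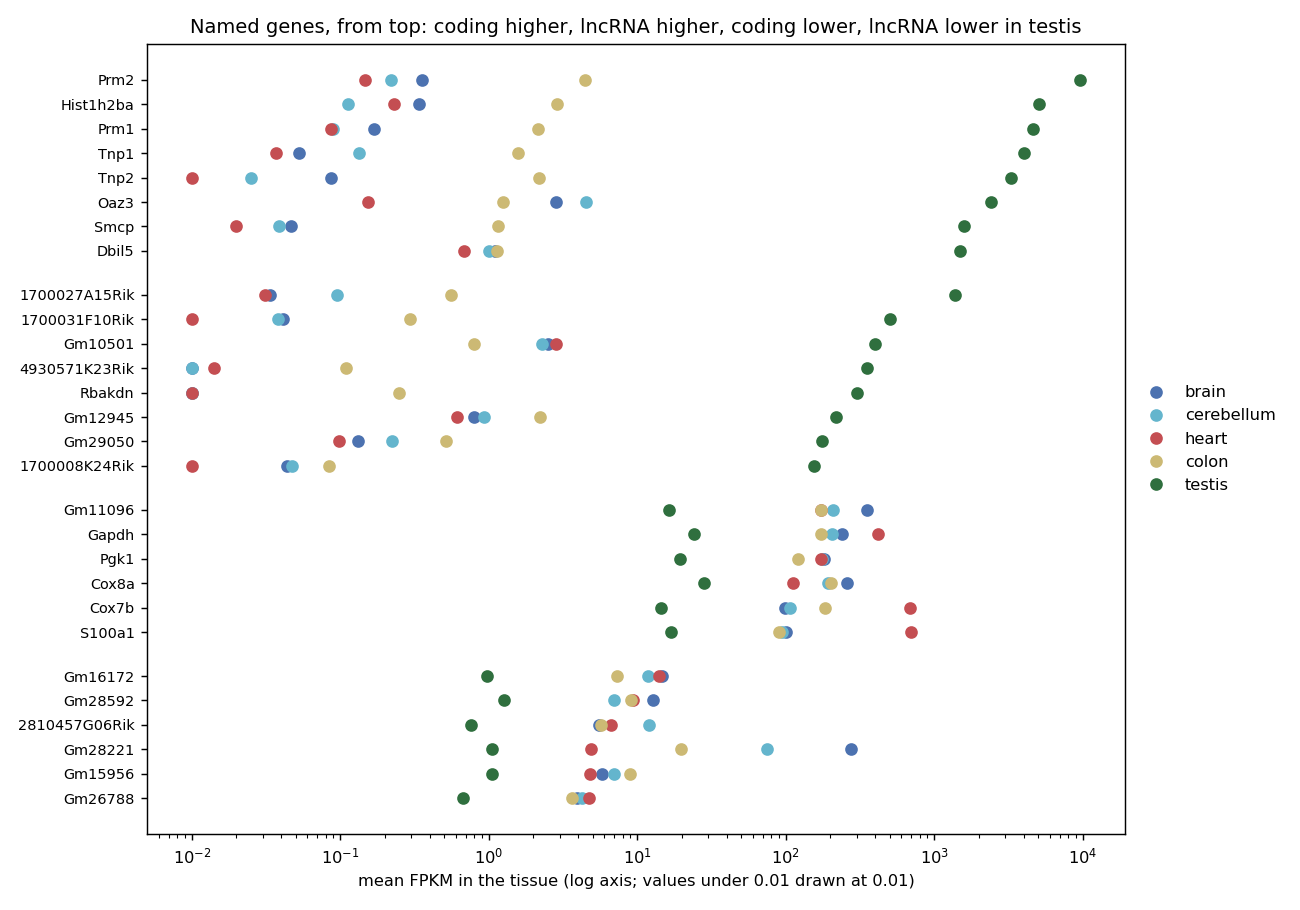
Mean FPKM in each tissue (horizontal axis, log scale; colors mark the tissue) of the coding genes and lncRNAs named as most abundant among those higher in testis and those lower in testis. Prm2 lies near 9646 FPKM in testis, and the colon points of the sperm genes lie above those of brain, cerebellum and heart except for Oaz3, which is highest in cerebellum.

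lncRNAs that lie wholly or nearly so opposite coding exons mostly had values close to those of the coding gene. Of the tested lncRNAs, 110 had 80% or more of their exon bases opposite exons of 1 coding gene, and their log2 differences correlated with those of that gene at 0.961 (a description across pairs, which share genomic positions and libraries). In 92 of the 110 the values lay within 1 log2 unit of each other. The likeness was looser with less overlap, with a correlation of 0.827 and 927 of 1465 within 1 log2 unit for lncRNAs with 1 to 50% of their exon bases opposite a coding gene. Whether the counting used strand is not given in the sources used here, although the libraries were strand-specific, and reads of a gene and of its opposite-strand partner cannot then be told apart. Tsix, which is transcribed across Xist from the opposite strand but shares no exon base with it in the deposited models, stood at 3.05 to 20.4 FPKM in the 12 female somatic libraries, where Xist stood at 10.9 to 162.5 FPKM, and at no more than 0.469 FPKM in the 11 male ones. The part of opposite-strand reads in these values was not tested. The 4519 lncRNAs with no base opposite a coding exon were called higher than all 4 tissues in 1875 cases (41.5%) and lower in 143 (3.16%), with a median log2 difference of 1.75. For the 110, the counts were 18 higher (16.4%) and 19 lower (17.3%), with a median of -0.57. When every gene sharing exon bases with another was left out, 3539 of 13887 coding genes (25.5%) were higher than all 4 tissues. Of the 3926 lncRNAs left, 1673 (42.6%) were higher and 111 (2.83%) lower.

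**Figure D4:**
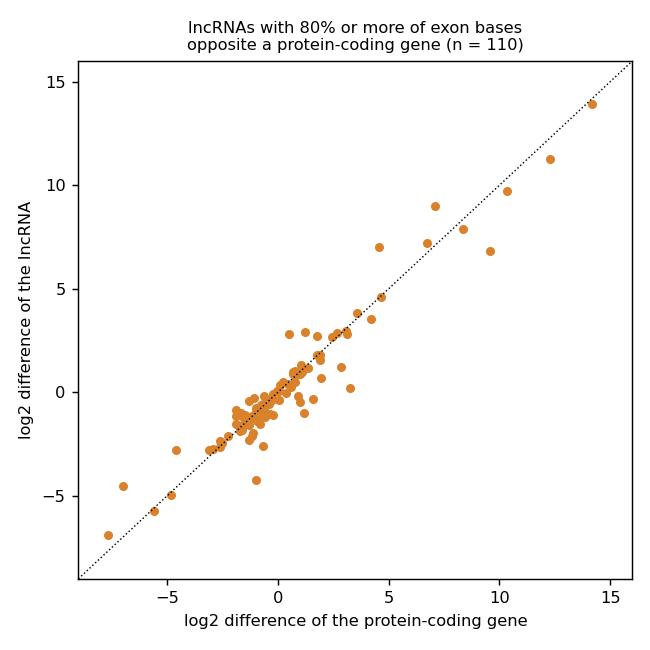
Log2 difference between testis and the equal-weight somatic mean of 110 lncRNAs (vertical axis) against that of the protein-coding gene opposite to which they lie (horizontal axis); the dotted line marks equal values. The points follow the line, with a correlation of 0.961.

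The lncRNAs lower in testis were few at appreciable levels, and most of those named lie opposite a coding gene that was lower too. Among 39 lncRNAs lower than each tissue by 2 or more with no overlap of libraries, the 6 with the highest somatic floor stood at 0.666 to 1.26 FPKM in testis. Gm26788 (chr1:34165856-34178446, minus strand), the only one of the 6 with no shared exon base, stood at 0.676, 0.615 and 0.707 FPKM in testis and between 2.63 and 5.28 FPKM in every somatic library, a log2 difference of -2.46 ± 0.17 (SE; edgeR adjusted P = 9.91e-13). Gm28221 lies wholly opposite Ncald, a neuronal calcium sensor, and fell from 275 FPKM in brain and 74.9 FPKM in cerebellum to 1.05 FPKM in testis. Gm28592 had 98.1% of its exon bases opposite Phlda1, and Gm16172 had 42.2% opposite Tmem63b. Gm15956 shares 90 bases with Npc1. 2810457G06Rik was the exception in direction: 45.2% of it lies opposite Samd4, which was higher in testis with a log2 difference of 3.04, while the lncRNA itself stood at 0.755 FPKM in testis and 5.52 to 12.0 FPKM in the tissue means.

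Of the 6 coding genes named as lower in testis from the highest somatic levels, 4 serve glycolysis or respiration. A total of 268 coding genes were lower than each tissue by 2 or more with no overlap of libraries. Gapdh (chr6:125161854-125165605, minus strand), the glycolytic glyceraldehyde-phosphate dehydrogenase often used as a reference gene, stood at 22.4, 22.2 and 27.8 FPKM in testis and at 123 FPKM or more in every somatic library. Pgk1, the X-linked phosphoglycerate kinase, stood at 19.9, 15.3 and 22.6 FPKM in testis and at 102 FPKM or more elsewhere. Their testis counterparts went the other way, Gapdhs standing at 793 ± 59.6 FPKM, in a locus counted together with 1 other gene, and Pgk2 at 547 ± 15.3 FPKM. The cytochrome oxidase subunits Cox8a and Cox7b stood at 28.1 and 14.5 FPKM in testis and at 111 to 259 and 99.5 to 689 FPKM in the tissue means. S100a1, a calcium-binding protein of muscle and brain, stood at 16.9 FPKM in testis and at 90.7 FPKM or more in the tissue means. Gm11096 also met the rule, but its annotated exons span only 45 bases, of which 8 lie opposite Slc8a1.

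Gene lists by function placed these genes in their setting. Each list is described by the number of its tested members called and by the median log2 difference, where the median over all genes tested was 0.12. Among the genes named from the lists, exon bases are shared with another gene by Adam3, Kctd19, Gfra1, Id4, Nanos2, Rnf8, Dld, Gapdhs, Map2, Aldh1l1, Tnni3, Tapbp, Nlrc5, Cd74, Col3a1 and the mitochondrial loci, and among lncRNAs by Malat1, Neat1, Pvt1, Dleu2, Mir17hg, Meg3, Rian, C130071C03Rik, Morrbid, H19, Hotair and Mhrt. Most members of 7 of the 8 germ-cell lists were higher in testis than in all 4 tissues, a call made for 27.1% of all genes, and the list of stem and premeiotic genes was the exception with 10 of 20. All 37 sperm tail genes were higher (median 9.21), among them Odf1, an outer dense fiber protein, at 1451 ± 107 FPKM. Of 27 acrosome and gamete interaction genes 26 were higher (median 10.9), of 30 meiotic chromosome genes 27 (median 6.96) and of 18 transcription regulators of the germline 17 (median 9.15, or 7.51 with genes unseen in soma set at their bound). Actl7a and Actl9, actin-related proteins of the spermatid head, stood at 227 and 194 FPKM. The meiotic list was led by Syce2 at 160 FPKM, Syce1 at 142 FPKM and Stag3, a meiotic cohesin, at 113 FPKM. The regulators were led by Spz1 at 944 FPKM, Dmrtb1 at 253 FPKM and Kctd19 at 150 FPKM.

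Single members departed from the other germ-cell lists. Of 15 chromatin packaging genes 13 were higher (median 13.9), while Pygo2, a chromatin reader, was lower against the equal-weight mean by -0.28 (edgeR adjusted P = 0.044) and the locus that holds the ubiquitin ligase Rnf8 together with 2 other genes was not called. Of 27 genes for germline RNA binding and translation 25 were higher than all 4 tissues (median 8.20). They were led by the RNA-packaging Y-box proteins Ybx2 at 763 FPKM and Ybx3 at 752 FPKM and by the piRNA-pathway protein Mael at 494 FPKM, while Cpeb1 was lower against the mean by -1.10. Of 20 genes for germline energy metabolism 17 were higher (median 8.72), with the testis lactate dehydrogenase Ldhc at 914 ± 37.5 FPKM. Pgam2, the muscle phosphoglycerate mutase, stood at 763 FPKM in testis and 661 FPKM in heart and so was not higher than all 4, and Dld was lower against the mean by -0.71.

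The list of germline stem and premeiotic genes was the most divided. Of its 20 genes 10 were higher than all 4 tissues (median 4.39), led by the helicase Ddx4 at 109 ± 11.7 FPKM and Tex101 at 82.0 ± 11.6 FPKM. The receptor Ret was lower than all 4, at 0.183 FPKM in testis against 1.05 to 2.91 FPKM in the tissue means. Id4, Gfra1 and Zbtb16, which mark undifferentiated spermatogonia but are also made by other tissues, were lower against the equal-weight mean, by -0.58, -1.20 and -1.30. Id4 stood at 4.28 FPKM in testis and 52.6 FPKM in cerebellum. Etv5, Bcl6b and Nanos2 were not called.

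The somatic cells of the testis were visible beside the germ cells. Of 20 Sertoli cell genes 14 were higher than all 4 tissues (median 4.98), among them Cst9, above, and Ctsl, a lysosomal protease, at 209 FPKM in testis and 63.6 to 149 FPKM in the tissue means. Trf, the iron carrier transferrin, was lower against the mean by -1.61, with 231 FPKM in cerebellum and 22.3 FPKM in testis, and Sox9 and Amh were not called. Of 13 Leydig cell genes 11 were higher (median 8.09). Cyp11a1, which starts steroid synthesis, stood at 219, 210 and 321 FPKM in the 3 testis libraries, and Hsd3b6 at 191, 183 and 288 FPKM, so that testis replicate 3 was the highest in both.

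Markers of neurons, glia and cardiomyocytes were mostly lower in testis against the mean. In the neuron list 14 of 16 genes were lower against the equal-weight mean (median -3.50) and 5 were lower than all 4 tissues, against 9.33% of all genes. Snap25 and Nrgn, synaptic proteins, stood at 0.168 and 4.56 FPKM in testis and 849 and 616 FPKM in brain, and the kinase Camk2a fell from 505 FPKM in brain to 0.123 FPKM. Map2 was called higher against the mean, with 16.3 FPKM in testis between 153 FPKM in brain and 0.476 FPKM in heart. Calls against the mean were made for 26.6% of all genes in the lower and 40.7% in the higher direction. Of 14 glial genes 11 were lower against the mean and 2 lower than all 4 (median -2.69), among them the myelin gene Mbp and the transporter Slc1a3, while Aldh1l1 was called higher at 41.4 FPKM in a locus that shares bases with neighbors. Of 16 cardiomyocyte genes 11 were lower against the mean and 1 lower than all 4 (median -2.61), and Myl2, Actc1 and Myl3 stood at or below 1.23 FPKM in testis and at 5766 FPKM or more in heart. Tnni3 and Myl7 were called higher against the mean, at 22.9 FPKM, in a locus counted with 1 other gene, and 4.01 FPKM.

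Of 16 colon epithelium genes 6 were lower against the mean, beside 26.6% of all genes, and 1 was lower than all 4, beside 9.33% (median -1.31), with Car1, a carbonic anhydrase, at 0.788 FPKM in testis and 10350 FPKM in colon, and with Lgals4 and Krt19 at 0.998 and 4.38 FPKM in testis. Epcam, an epithelial adhesion molecule that spermatogonia also make, was called higher against the mean by 4.94, at 13.4 FPKM in testis. Of 14 endothelial genes 12 were lower against the mean and 1 lower than all 4 (median -1.30), among them Pecam1 and Kdr, while Vwf was not called. Of 18 leukocyte genes 7 were lower against the mean and 0 lower than all 4 (median -0.45), and Lyz2, H2-Aa and Cd74 were not called. Among 14 genes of class I antigen presentation 9 were lower against the mean and 1 lower than all 4 (median -0.74), B2m by -0.80 and H2-D1 by -0.94, while Tapbp and Nlrc5 were called higher and H2-K1 was not called. In the list of extracellular matrix and fibroblast genes 7 of 16 were higher and 3 lower against the mean (median 0.38), beside 40.7% and 26.6% of all genes, and 2 were lower than all 4. Dcn and Col3a1 were higher against the mean, Sparc was not called, and Fn1, Lum and Pdgfrb were lower.

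Reference genes did not move as one. Among 16 housekeeping reference genes 6 were higher and 8 lower against the mean (median -0.36), and 1 was higher and 5 lower than all 4 tissues, where the shares of all genes were 40.7% and 26.6% against the mean and 27.1% and 9.33% against all 4. Tbp, the TATA-binding protein, stood at 43.3, 44.3 and 41.2 FPKM in testis against at most 8.57 FPKM in any somatic library, a log2 difference of 3.01 ± 0.08 (SE). Actb and B2m were lower against the mean, and Eef2, Rplp0 and Polr2a were higher by 0.41 to 0.80. All 13 mitochondrially encoded genes were lower than all 4 tissues, but they were counted in 3 loci, and the median over these 3 values was -2.12. The locus that holds mt-Nd1, mt-Nd2 and mt-Nd3, subunits of respiratory complex I, stood at 545 ± 50.2 FPKM in testis and 1962 to 8140 FPKM in the tissue means.

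**Figure D5:**
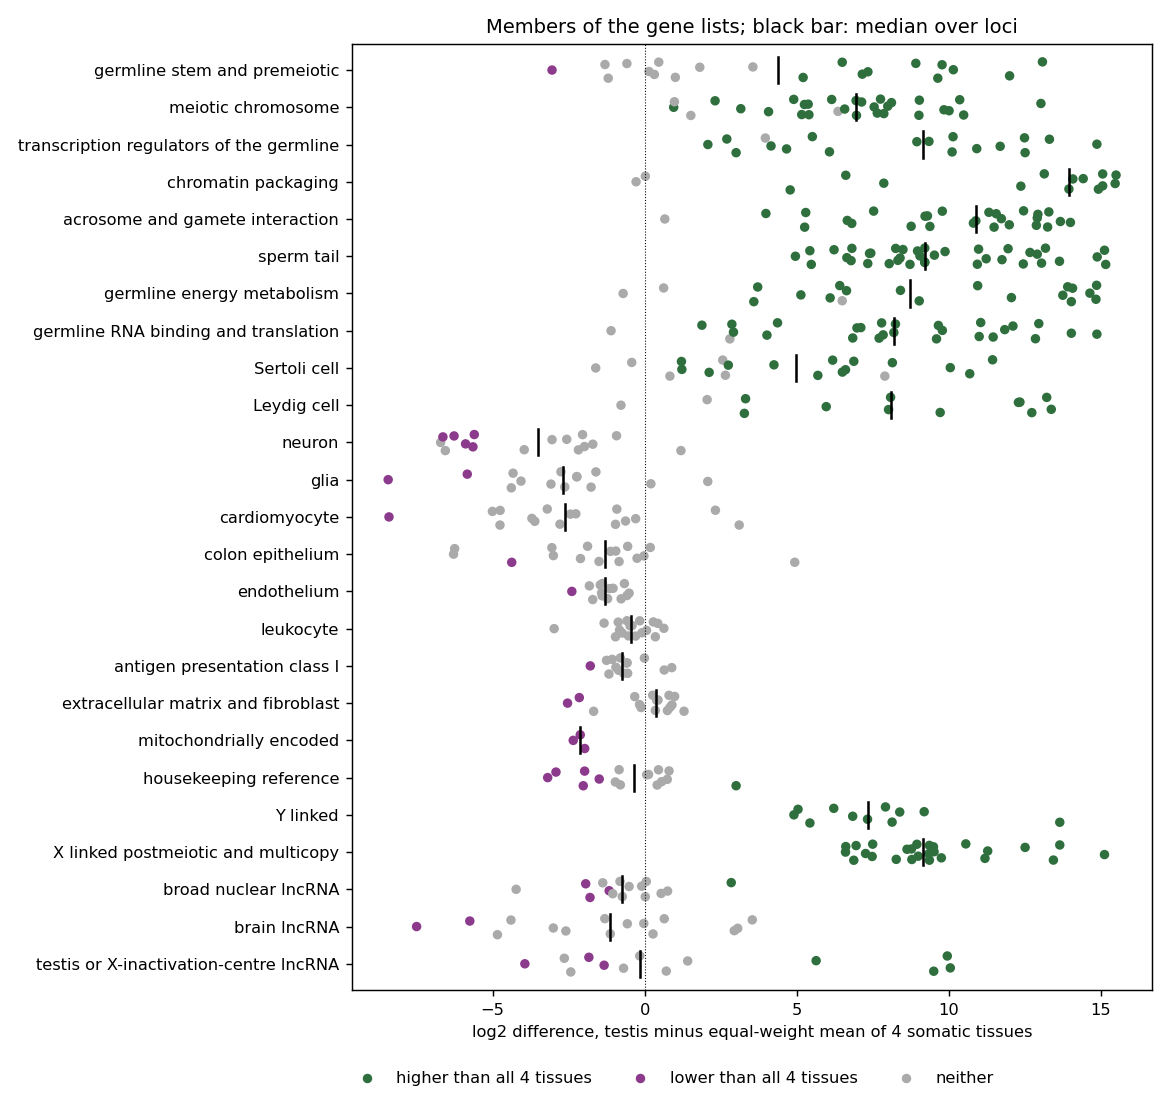
Log2 difference between testis and the equal-weight somatic mean (horizontal axis) of each tested member (points) of each gene list (vertical axis); colors mark genes higher or lower than all 4 tissues, and bars mark the median over loci. The germ-cell lists have medians from 4.39 to 13.9, with single members down to -3.04, and the neuron, glia and cardiomyocyte lists have medians from -3.50 to -2.61.

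X-linked genes were compared with autosomal genes by the shares called. Among 773 X-linked coding genes tested, 251 (32.5%) were higher than all 4 tissues and 144 (18.6%) lower, where the autosomal shares were 25.3% and 12.6% of 17379. Among X-linked lncRNAs 21 of 84 (25%) were higher against 37.75% of 6157 autosomal ones, and 11 (13.1%) were lower against 4.26%. Against male somatic libraries alone, 236 X-linked coding genes were higher and 129 lower, and 21 X-linked lncRNAs were higher and 6 lower. In that setting the X-linked and autosomal shares were 30.5% and 23.6% higher and 16.7% and 11.0% lower for coding genes, and 25% and 35.1% higher and 7.14% and 3.43% lower for lncRNAs. No test of these shares was made. Among the X-linked genes higher in testis, Akap4, which anchors protein kinase A to the fibrous sheath of the tail, stood at 1184, 1116 and 1098 FPKM, and Hypm and Tsga8 at 197 ± 14.2 and 184.5 ± 17.95 FPKM. The most abundant X-linked lncRNAs of this kind were 1700010D01Rik at 103 ± 7.63 FPKM, Gm15104 at 52.2 ± 4.95 FPKM and BC061195 at 28.3 ± 3.99 FPKM, and none of these shares exon bases with another gene.

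All 26 tested members of the list of X-linked postmeiotic and multicopy genes were higher than all 4 tissues. Their median was 9.17, or 6.91 with the 12 members that had no count in any somatic library set at their bound. Cypt1 and Cypt3 stood at 120 ± 7.75 and 86.5 ± 10.5 FPKM in testis. Copies of such families are near-identical, and since only uniquely mapped reads were kept, their levels are uncertain. The 11 tested members of the Y-linked list were all higher than all 4 tissues (median 7.33, or 5.04 with the 4 members unseen in soma at their bound), but 12 of the 23 somatic libraries are female and lack the chromosome. Against male somatic libraries alone, 33 of the 39 Y-linked coding genes tested (84.6%) were higher than all 4 tissues and 2 lower, with a median of 7.26. Kdm5d, Uty and Ddx3y were lower against the mean in that setting, by -1.48, -1.14 and -0.83, where Ddx3y stood at 7.76 ± 1.26 FPKM in testis. Eif2s3y, a Y-linked translation initiation subunit needed in spermatogonia, stood at 20.1 ± 2.94 FPKM in testis. One member of that list, the spermatid histone variant H2al2a, lies on chromosome 2 in the deposited annotation and stood at 225 ± 27.3 FPKM and at most 0.251 FPKM in soma.

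Well-studied lncRNAs were counted beside the lncRNA class, of which 51.5% were higher and 14.3% lower against the mean and 37.6% higher and 4.37% lower than all 4 tissues. Of 15 tested broad nuclear lncRNAs 9 were lower and 3 higher against the mean (median -0.73), and 1 was higher and 3 lower than all 4. Malat1 stood at 247 ± 9.62 FPKM in testis and 391 to 910 FPKM in the tissue means, and Neat1, the scaffold of paraspeckles, at 7.54 ± 0.0933 FPKM against 8.51 to 41.1 FPKM. Xist, made from the inactive X chromosome of females, was near 0 in testis, and its difference of -4.22 against all somatic libraries was 0.87 and not called against male ones. Mir17hg, the host of a microRNA cluster, was higher than all 4 tissues by 2.85 on average, and Dleu2 and Pvt1 were higher against the mean. Of 15 brain lncRNAs 4 were lower and 4 higher against the mean and 0 higher and 2 lower than all 4 (median -1.13), with Rian at 119 FPKM in brain and 3.15 FPKM in testis, and Meg3, 6330403K07Rik and C130071C03Rik also lower, while Gm26917 was not called. Of 13 tested lncRNAs of testis or of the X-inactivation centre 5 were higher and 6 lower against the mean, and 4 were higher and 3 lower than all 4 (median -0.16). No difference between these lists and the class was tested. Tsx, Gm4665, Tslrn1 and Hotair were higher than all 4 tissues, Hotair at only 0.224 FPKM and Tsx at 38.9 ± 3.29 FPKM in a locus counted with 1 other gene, and H19 was lower against the mean by -2.64. Morrbid was higher against the mean by 1.42, and Mhrt was not called.

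lncRNAs named after clones were a large part of the testis set. The first digits of a RIKEN clone name tell the library it came from, and 6 such prefixes belong to adult testis libraries. Of 898 tested lncRNAs with such names 764 (85.1%) were higher than all 4 tissues and 4 lower, whereas of 760 with other RIKEN names 123 (16.2%) were higher and 73 lower. Among coding genes, 196 of 215 (91.2%) with such names were higher, beside 62 of 239 (25.9%) with other RIKEN names. The names record where the clones were found, so that this is a check of tissue and not a separate result.

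Calls were also compared within pairs of neighbors. In 648 pairs, tested lncRNAs were paired with a tested coding gene on the opposite strand whose start lay within 1000 bases of their own. Where the lncRNA was higher than all 4 tissues, so was the coding gene in 122 of 259 pairs (47.1%). Where the lncRNA was not, the coding gene was higher in 76 of 389 (19.5%). Of all coding genes tested, 25.7% were higher than all 4 tissues. Among the 502 pairs whose lncRNA has no exon base on the opposite strand of another gene, the counts were 100 of 212 (47.2%) and 49 of 290 (16.9%). These shares were not tested.

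The structure of the testis-enriched genes is given as a description. Coding genes higher than each tissue by 5 or more had a median of 5 exons and 1752 exon bases, beside 8 exons and 3175 bases for all coding genes tested. Of them 9.66% had a single exon, against 5.50% of all. For lncRNAs of this kind the median was 3 exons, as for all lncRNAs, and 953 exon bases against 1244. Long-read loci, in which the transcript model came from Iso-seq sequencing, made up 53.6% of these coding genes against 69.1% of all, and 3.44% of these lncRNAs against 3.22% of all. A longer gene gathers more counts at the same level, which was not adjusted for here.

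Few of the genes higher than each somatic tissue by 5 or more reached 1 FPKM in ovary, which was not part of the contrast. They were chosen for low levels in 4 other tissues, so that all genes tested are not a matched comparison. Of the 1542 coding genes higher than each somatic tissue by 5 or more, 112 (7.26%) reached 1 FPKM in ovary, against 69.0% of all coding genes tested. Of the 1251 lncRNAs of this kind 9 (0.719%) did so, against 27.2% of all lncRNAs. The median level of these 1251 lncRNAs in testis was itself 3.10 FPKM. Among the wider sets higher than all 4 tissues, 54.6% of coding genes and 14.7% of lncRNAs reached 1 FPKM in ovary. Hist1h2ba, which eggs are also known to hold, stood at 4.31 FPKM in ovary, and Cyp11a1 at 1587 FPKM.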

How the data were processed

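RNA of adult mouse tissues was depleted of ribosomal RNA and sequenced from strand-specific libraries. The authors deposited raw counts per gene for 29 libraries, made from uniquely mapped reads. The submitters' processing notes name FastQC 0.11.8, MultiQC 0.9, HISAT2 2.0.5, featureCounts 1.6.3 and build mm10; whether counting was by strand is not given in the sources used here. The deposited annotation (GRCm38.p6 in its header) joins Iso-seq loci with ENSEMBL genes, and 553 protein-coding loci hold several ENSEMBL genes, whose counts cannot be separated.

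One model with 10 group means over all 29 libraries was fitted in edgeR 4.0.16 (R 4.3.3) with TMM scaling, filterByExpr, the quasi-likelihood test and Benjamini-Hochberg adjustment over 29911 genes, with calls at an adjusted P under 0.05. Each somatic tissue was the mean of its female and male group. FPKM values were derived by dividing each deposited count by its library total and by the union exon length. DESeq2 1.42.0, other scalings, filters, sample sets and a replicate block were alternatives. On counts simulated for the testis contrast (27207 genes), 95% of 4-fold and 73% of 2-fold changes were recovered, with 6.15% false calls. In this simulation each gene had the same mean in every tissue, and only 200 genes, none of low count, were changed. The rates therefore do not carry over to the calls made here. Library values were compared by two-sided exact permutation tests. Libraries held 11742417 to 36194255 counts. No pair of replicates held identical counts. A count of 0 allows up to 3 counts, and such floors cover counting error only.

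The comparison, the 25 gene lists and the rule for named genes were chosen with earlier results of these data known. Named were, in each list, the 3 members of highest tissue mean and those called against most of the list; the 8 coding genes and 8 lncRNAs of highest testis level among those higher than each tissue by 5 or more on the log2 scale; the 6 and 6 with the highest lowest somatic tissue mean among those lower by 2 or more, both without overlap of libraries; and 3 and 3 X-linked genes. Pgk2, Tsix, Meg3, C130071C03Rik, the genes not called in a list and the genes opposite named lncRNAs were named after their values were seen. RefSeq promoter windows (GRCm38.p6) were found for 22 of 35 genes looked up and printed for a few; they covered under 80% of all tested genes, so that a check of promoter properties over all genes was void. A few list members that the rule would name are not reported here, so that the members named from the lists are not complete.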

Additional observations from a re-analysis of the deposited data

Results flagged for a closer look

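In 28 groups of 5 or 6 libraries (7 library values in each of 4 somatic tissues), 6 values lay far from the rest of their group by Dixon's criterion, where chance gives about 1 in 20. Female heart replicate 3 held 12225 protein-coding genes at 1 FPKM or more, against 10538 to 11016 in the other hearts. It held 1547 lncRNAs at that level, against 994 to 1104. Its share of counts on lncRNAs was 3.34%, against 2.38% to 2.60%, and its 100 highest genes took 33.1% of counts, against 44.4% to 46.8%. In female cerebellum replicate 3, X-linked genes took 4.13% of counts, against 2.82% to 3.29% in the other cerebellum libraries, and mitochondrially encoded genes took 5.17%, against 2.46% to 3.25%.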

How the results depend on the processing

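The testis excess of protein-coding genes at 1 FPKM or more (795.3) missed the threshold in the reported setting but passed it at 0.5 FPKM (1083.8), with TMM-scaled library sizes (1041.9), against male somatic libraries (867.9) and, chosen after seeing the data, without female heart replicate 3 (865.5). At 2 FPKM the excess fell to 506.5 (exact permutation P = 0.2108). Without each testis library or female heart replicate 3, the only ones left out for the library values, it ranged from 759.3 to 865.5. The X-linked share differed by -1.027 to -0.9678 percentage points without each of these 4 libraries and missed the threshold without any one testis library, and the share of the 100 highest genes differed by -11.83 to -10.73 and missed it without testis replicate 1; with 2 testis libraries fewer choices exist for the exact test.

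Leaving out genes that share exon bases left 3926 lncRNAs, of which 387 (9.86%) were lower against the mean and 111 (2.83%) lower than all 4 tissues, beside 14.3% and 4.37% of all lncRNAs tested. Upper-quartile scaling, which moved the median of all genes from 0.12 to -0.21, turned the balance of coding genes called, as did total counts alone, and raised the genes lower than all 4 tissues to 3690 coding genes and 432 lncRNAs, and the share of called coding genes that were higher was 45.1% in place of 53.7%. Against male somatic libraries Kdm5d (-1.483), Uty (-1.141), Ddx3y (-0.8282), Tsix (0.1926) and Xist (0.8704) changed sign, the last 2 without a call. Slc17a7 turned to 0.19 without the 3 colon libraries with testis transcripts, chosen after seeing the data, and Rnf8 to -0.3066 with upper-quartile scaling. The cause of these changes was not tested beyond what the settings themselves remove.

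No pairing of the libraries by replicate number was seen. Deviations of testis and same-numbered libraries of other groups correlated at -0.0952 to 0.0662, beside -0.0964 to 0.0925 for other numbers. By the first digit of the library code, testis and male somatic libraries correlated at -0.0283 to 0.0569 for the same digit. For another digit the range was -0.0656 to 0.0725. With the replicate number as a block, 4656 coding genes and 2323 lncRNAs were higher than all 4 tissues. With the library code as a block in males, Kdm5d stood at -1.41, Uty at -1.043, Ddx3y at -0.756 and Tsix at 0.7347. Depth limits calls for the genes of fewest counts.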
